A study of Homo sapiens with 12 samples.

Results

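The 10 genes of cellular iron handling described here were followed across 12 libraries: FTL, FTH1, TFRC, SLC40A1, HMOX1, IREB2, ACO1, NCOA4, SLC11A2 and SLC39A14. They were chosen by symbol, and all 10 are among the 27788 symbols of the deposited count tables. The study deleted GSTO1, which encodes glutathione S-transferase omega 1, a cytosolic enzyme of thiol and glutathione chemistry, in HCT116 colorectal carcinoma cells and in U-87 MG glioblastoma cells. Each of the 2 lines has 3 knockout (KO) and 3 wild-type (WT) libraries of poly(A) RNA. Both lines were made to express Cas9 stably from a lentivirus, with blasticidin selection, and received tracrRNA with a crRNA against exon 2 of GSTO1 or a non-targeting crRNA. Knockout colonies were then picked, screened for loss of GSTO1 and sequenced. Whether the WT libraries come from the parental lines or from cells given the non-targeting crRNA, and how many colonies the KO libraries represent, is something the sources used here do not give. Loss of GSTO1 therefore cannot be told apart from differences between picked colonies, in KO against WT or between the lines. No label says that replicates are separate cultures, so p-values measure the spread between libraries, which may be technical. HCT116 was read single-end and U-87 MG paired-end, each at 50 bases, so the line cannot be told apart from the read layout.

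Cells take up transferrin-bound iron through the transferrin receptor TFRC and store what they do not use in ferritin, a shell built of heavy (FTH1) and light (FTL) chains. When iron is scarce, the regulatory proteins encoded by ACO1 (IRP1) and IREB2 (IRP2) bind hairpins called iron-responsive elements (IREs): at the 5′ end of ferritin mRNA they block translation, and in the 3′ end of TFRC mRNA they protect the transcript from decay. Ferritin genes and HMOX1 are also transcriptional targets of NRF2, the regulator of the antioxidant response.

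The IREs are shown because they are the regulatory sequence that ferritin, the exporter SLC40A1 and TFRC share. The untranslated regions (UTRs) of GENCODE v44 transcripts on GRCh38 were searched on the sense strand for C, then NNNNN, then CAGTG, then NNNNNN, in which the 5 bases after the first C pair with the last 5 by Watson-Crick or G:T pairs. The match is printed inside 25 bases, 5′ to 3′, and capitals mark the CAGTG of the loop.
FTL 5′ UTR, chr19:48965337-48965361, plus strand: cttgcttcaaCAGTGtttggacgga
FTH1 5′ UTR, chr11:61967576-61967600, minus strand: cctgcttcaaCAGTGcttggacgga
SLC40A1 5′ UTR, chr2:189580663-189580687, minus strand: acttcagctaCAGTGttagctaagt
TFRC 3′ UTR, chr3:196050981-196051005, minus strand: ttatcggaagCAGTGccttccataa
TFRC 3′ UTR, chr3:196050577-196050601, minus strand: ttatcgggagCAGTGtcttccataa
TFRC 3′ UTR, chr3:196050512-196050536, minus strand: gtatcggagaCAGTGatctccatat
TFRC 3′ UTR, chr3:196050465-196050489, minus strand: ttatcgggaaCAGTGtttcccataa
The ferritin elements are identical at 23 of 25 bases. The 4 TFRC elements lie within 541 bases of each other and share 17 to 23 of 25 bases pair by pair. The letters occur in 19 of 19441 5′ UTRs (0.0977%) and 122 of 19936 3′ UTRs (0.612%). A match is a description and not a proven site, and a member without one lacks these letters in the transcripts searched, no more.

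Library totals ran from 17814142 to 28097179 counts. GSTO1 was lower in the KO libraries of both lines: 17.1, 14.6 and 15.7 CPM (counts scaled to library size, here with TMM within each line) in HCT116 KO against 63.9, 64.7 and 61.4 in WT. The U-87 MG values were 25, 23.8 and 25.2 CPM in KO against 143, 142 and 117 in WT. GSTO1 followed the labels in all 12 libraries, with 24.9% of WT GSTO1 RNA left in HCT116 KO and 18.4% in U-87 MG KO. Epithelial markers summed to 3333 to 3743 CPM in HCT116 and 12.2 to 22.1 CPM in U-87 MG, while the glial and mesenchymal list reached 37089 to 39437 CPM in U-87 MG. In HCT116 that list summed to 1222 to 1298 CPM in KO and 669 to 696 in WT, mostly CD44, a broadly expressed adhesion receptor, which rose (log2 0.90), as did the matrix gene SPARC (log2 1.04). The epithelial genes CDH1 (log2 0.86) and CLDN4 (log2 0.95) also rose in HCT116 KO. In U-87 MG KO the keratin gene KRT8 (log2 -1.12) and the matrix gene TNC (log2 -0.78) fell and CLDN4 rose (log2 1.09, SE 0.31). KRT8 and CLDN4 were low there, as the whole epithelial list summed to at most 22.1 CPM. The defining glial genes GFAP, S100B and SOX2 were near 0 in U-87 MG, and VIL1 was near 0 in HCT116. The leukocyte list summed to 593 to 615 CPM in U-87 MG KO and 375 to 456 in WT, nearly all of it the lysosomal gene CD68. CD68 rose (log2 0.63, and 0.57 or 0.58 without WT replicate 1 or 2, no longer called), while CSF1R, the other tested gene of that list, fell from 22.5 ± 0.975 to 13.3 ± 1.02 CPM (SD, n = 3, log2 -0.75, edgeR adjusted p = 7.1e-08). PTPRC stayed at or below 0.5 CPM, and erythroid markers summed to at most 0.886 CPM in any library. The part of these markers in the results was not tested. The ribosomal RNA gene listed as RNR2 took 1.36% to 1.54% of counts in HCT116 KO and 0.981% to 1.06% in WT, while U-87 MG had 0.419% to 0.435% in KO and 0.254% to 0.322% in WT. The part of RNR2 in the results was not tested.

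The U-87 MG WT library of replicate 3 stood apart over all genes. The chi-square per degree of freedom of its counts was 8.62 and 9.77 against WT replicates 1 and 2, which gave 2.42 between them. Pairs in the other groups gave 1.49 to 5.82. In HCT116, replicate 3 was also farther from the rest of its group. KO pairs with it gave 5.82 and 5.65, against 1.82 between replicates 1 and 2. HCT116 WT pairs with replicate 3 gave 3.77 and 3.58, against 1.49. GSTO1, FTL, FTH1 and TFRC in U-87 MG WT replicate 3 were also off from the other WT libraries of that line. Without it no member was called in U-87 MG, and the log2 fold changes there were 0.28 for FTL, 0.29 for FTH1, -0.27 for TFRC, -0.43 for HMOX1 and 0.09 for IREB2. SLC39A14 was at -0.32, NCOA4 at 0.32, SLC11A2 at 0.07 and ACO1 at -0.04. The edgeR adjusted p of IREB2 then was 0.0611, above the threshold. The difference between lines was -1.18 for FTL and -0.33 for TFRC without it.

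A gene was called when edgeR's quasi-likelihood test gave a Benjamini-Hochberg adjusted p under 0.05 with a fold above 1.5 and a mean above 0.5 FPKM, the authors' length-scaled unit. In HCT116 1 of 9 tested members was called, against 11.9% of all 14068 genes tested (7.82% higher and 4.07% lower), and in U-87 MG 0 of 9, against 16.2% of 13741 (8.06% higher and 8.15% lower). By adjusted p alone, whatever the fold, 4 of 9 passed in HCT116 (57.3% of all genes) and 6 of 9 in U-87 MG (59.3%). KO and WT libraries did not overlap for 5 of 9 members in HCT116 (61.6% of all genes) and for 8 of 9 in U-87 MG (64% of all genes). DESeq2 with the same thresholds called 2 members in HCT116 and 0 in U-87 MG. The median log2 fold change of the 9 members was -0.08 in HCT116 and 0.06 in U-87 MG, beside 0.01 for all genes in each line. SLC40A1 did not pass the count filter in either line.

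**Figure D1:**
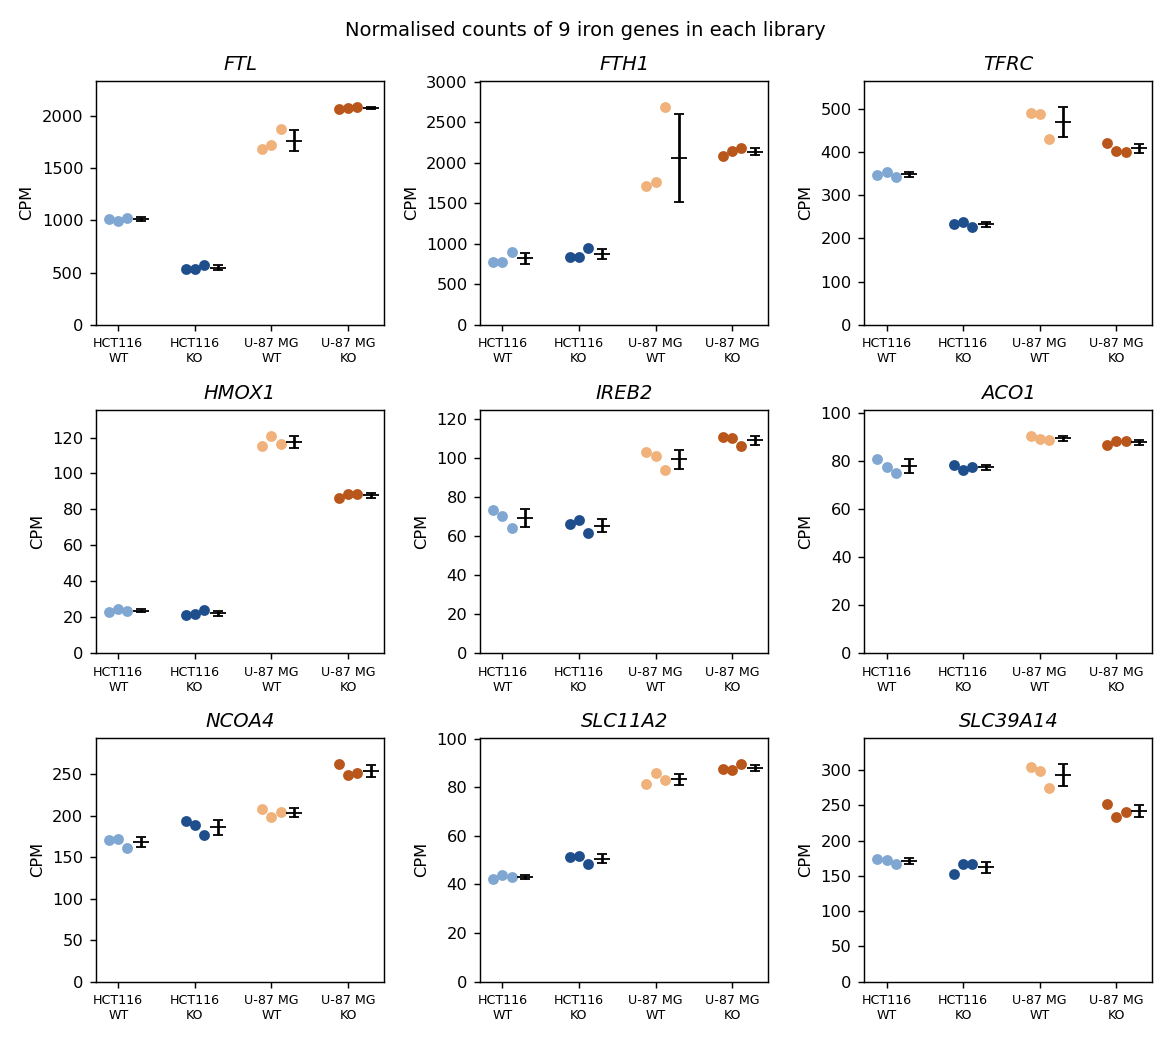
CPM (vertical axis, from 0, scaled within each line) of the 9 members with enough counts, with 1 point per library and bars of mean ± SD (n = 3) for WT and KO of each line. FTL fell in HCT116 KO and was higher in U-87 MG KO, and U-87 MG WT replicate 3, which stands apart over all genes, has FTH1 at 2686 CPM.

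Ferritin light chain fell in the HCT116 knockout. FTL (chr19:48965309-48966879, plus strand, 4 exons) was at 538, 531 and 573 CPM in KO against 1017, 995 and 1024 in WT. Every KO library lay below every WT library, and KO held 54.1% of the WT level. The log2 fold change was -0.89 (SE 0.04, edgeR adjusted p = 1.4e-13), a 1.85-fold fall. In these bulk samples fewer expressing cells and less RNA per cell cannot be told apart. In U-87 MG, FTL was at 2063, 2073 and 2084 CPM in KO against 1686, 1723 and 1879 in WT, and every KO library was above every WT library. This 1.18-fold difference (log2 0.23, SE 0.04, edgeR adjusted p = 1.4e-05) was under the fold required.

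Ferritin heavy chain did not follow the light chain in HCT116. FTH1 (chr11:61959718-61967634, minus strand), which carries the ferroxidase centre that loads the shell, was at 835, 836 and 949 CPM in KO against 774, 778 and 903 in WT. The groups overlapped, and the log2 fold change was 0.09 (SE 0.05, edgeR adjusted p = 0.148). U-87 MG KO had 2088, 2150 and 2176 CPM of FTH1 against 1717, 1767 and 2686 in WT, with the WT library of replicate 3 above all others. The log2 fold change was 0.06 (SE 0.21, edgeR adjusted p = 0.840), and without that library it was 0.29 (adjusted p = 8.4e-19), still not called. FTH1 has copies in the genome: 41.3% of the 50-base stretches of its transcript recur in other genes, as do 18.5% for FTL. The sources used here do not say how the authors' counting treated such reads, or strand. BEST1, antisense over 73.2% of the FTH1 exons, was at 0.154 to 0.335 CPM in HCT116 and 1.66 to 2.21 in U-87 MG. The copy FTH1P3 was listed at 0.578 to 1.11 CPM, and FTH1P18 and FTLP10 at 0.

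The heavy and light chains stood in opposite order in HCT116 KO and WT. On the FPKM scale the FTH1 to FTL ratio was 1.17, 1.17 and 1.19 in KO and 0.576, 0.595 and 0.641 in WT, means of 1.18 ± 0.0130 and 0.604 ± 0.0331 (SD, n = 3). By FPKM, heavy chain RNA exceeded light chain RNA in every KO library and in no WT library. How reads shared with copies were counted is not given, so which chain is more abundant is less certain than the KO to WT shift. The two-sided exact permutation p was 0.1, the smallest that 3 against 3 allows, and 0.15 after Benjamini-Hochberg adjustment over the 6 ratio tests made. In U-87 MG the ratio was 0.735, 0.743 and 0.750 in KO against 0.737, 0.737 and 0.988 in WT, and the groups overlapped (exact permutation p = 0.8, adjusted 0.8). FTH1 and FTL together took 0.138% to 0.153% of counts in HCT116 KO and 0.176% to 0.192% in WT. They took 0.422% to 0.431% in U-87 MG KO and 0.335% to 0.451% in WT.

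**Figure D2:**
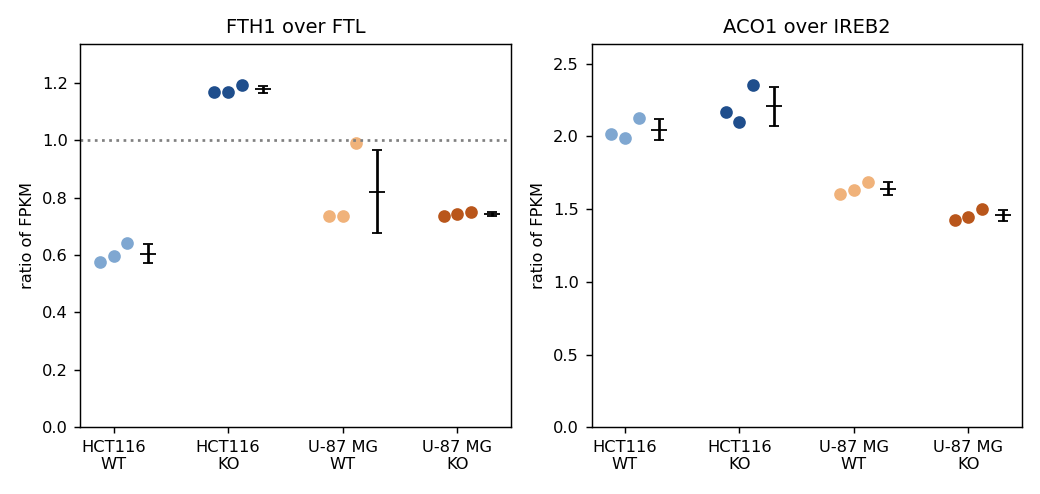
Ratio of FPKM values (vertical axis, from 0) of FTH1 to FTL and of ACO1 to IREB2, with 1 point per library and mean ± SD (n = 3), a dotted line marking equal FTH1 and FTL. HCT116 KO libraries lie at 1.17 to 1.19 for FTH1 to FTL and those of HCT116 WT at 0.576 to 0.641.

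Among the genes of uptake, TFRC showed the largest difference of the members in HCT116 after FTL. TFRC (chr3:196012511-196082153, minus strand, 19 exons) was at 234, 239 and 227 CPM in HCT116 KO against 348, 354 and 343 in WT. The groups were well apart, and KO held 66.9% of the WT level. The log2 fold change of -0.58 (SE 0.04, edgeR adjusted p = 1.6e-10), 1.49-fold, was just under the fold required, and 7 of 15 alternative settings called it lower, among them those without KO replicate 2 (-0.60) and without WT replicate 3 (-0.59). Its U-87 MG levels, 421, 404 and 401 CPM in KO against 492, 488 and 430 in WT, did not overlap. That difference was smaller (log2 -0.20, SE 0.05, edgeR adjusted p = 8.4e-04).

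SLC11A2 (chr12:50979401-51028566, minus strand) encodes DMT1, which carries ferrous iron across the endosomal and plasma membrane. It was at 51.3, 51.8 and 48.4 CPM in HCT116 KO against 42.3, 44 and 42.9 in WT, without overlap (log2 0.23, SE 0.06, edgeR adjusted p = 0.00228). For U-87 MG the KO libraries had 87.5, 86.9 and 89.5 CPM against 81.3, 85.7 and 82.9 in WT (log2 0.08, adjusted p = 0.163). SLC39A14 (chr8:22367278-22434129, plus strand) encodes ZIP14, an importer of iron and other metals that are not bound to transferrin. It was at 153, 167 and 167 CPM in HCT116 KO against 174, 173 and 167 in WT, where the groups nearly touched (log2 -0.08, edgeR adjusted p = 0.137). It was lower without overlap in U-87 MG, at 251, 234 and 240 CPM in KO against 304, 299 and 275 in WT (log2 -0.28, SE 0.04, edgeR adjusted p = 1.3e-05). Neither importer reached the fold in either line.

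SLC40A1 (chr2:189560590-189583758, minus strand) encodes ferroportin, the iron exporter. It had 0 counts in all 6 HCT116 libraries and in the 3 U-87 MG WT libraries, and 1, 3 and 1 counts in U-87 MG KO. A count of 0 allows up to 3 counts, or 0.107 to 0.168 CPM depending on the library, counting error only. All libraries were at or under that limit, so no fold is given.

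The genes of iron sensing were close to level. IREB2 (chr15:78437431-78501453, plus strand) was at 66.0, 68.0 and 61.5 CPM in HCT116 KO against 73.3, 70.0 and 64.2 in WT, with overlap (log2 -0.09, edgeR adjusted p = 0.208). IREB2 levels in U-87 MG were 111, 110 and 106 CPM in KO against 103, 101 and 93.6 in WT (log2 0.13, SE 0.05, edgeR adjusted p = 0.0192). Over 15 alternatives this p ran from 0.00277 to 0.0734. ACO1 (chr9:32384603-32454769, plus strand) was at 78.5, 76.4 and 77.7 CPM in HCT116 KO against 80.9, 77.8 and 75.2 in WT (log2 -0.01, SE 0.05, edgeR adjusted p = 0.898). ACO1 in U-87 MG KO measured 86.9, 88.6 and 88.5 CPM against 90.8, 89.5 and 88.8 in WT (log2 -0.03, SE 0.05, edgeR adjusted p = 0.629). The ACO1 to IREB2 ratio by FPKM was 2.21 ± 0.132 in HCT116 KO against 2.04 ± 0.0721 in WT (SD, n = 3, exact permutation p = 0.2, adjusted 0.24). The U-87 MG ratio was 1.46 ± 0.0380 against 1.64 ± 0.0426 (SD, n = 3, exact permutation p = 0.1, adjusted 0.15).

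NCOA4 (chr10:46005088-46030623, minus strand), the cargo receptor that delivers ferritin to autophagosomes for iron release, was slightly higher in KO of both lines without overlap. It was at 194, 189 and 176 CPM in HCT116 KO against 171, 172 and 162 in WT (log2 0.15, SE 0.05, edgeR adjusted p = 0.0104). The U-87 MG libraries gave 262, 249 and 252 CPM in KO against 209, 198 and 205 in WT (log2 0.32, SE 0.04, edgeR adjusted p = 6.0e-07). Neither difference reached the fold.

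HMOX1, heme oxygenase 1, frees iron from heme. In HCT116 it was at 21.2, 21.6 and 23.9 CPM in KO against 23.2, 24.7 and 23.3 in WT, with overlap (log2 -0.09, SE 0.07, edgeR adjusted p = 0.310). Its U-87 MG levels were 86.2, 88.4 and 88.8 CPM in KO against 115, 121 and 116 in WT, and all KO libraries lay below all WT libraries. That 1.34-fold difference (log2 -0.42, SE 0.05, edgeR adjusted p = 4.5e-08) was below the fold required.

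HMOX1 lies on chromosome 22 (35380361 to 35394214, plus strand), whose genes were lower as a group in U-87 MG KO. Of 309 tested chromosome 22 genes there, 219 were called lower (70.9%) and 4 higher, with a median log2 fold change of -0.97, against the 8.15% of all genes called lower. The HMOX1 difference of -0.42 was smaller than that median. In HCT116 the chromosome 22 median was -0.0042. The part of this chromosome-wide shift in the HMOX1 value was not tested. The medians of the chromosomes of the other 8 tested members lay between -0.02 and 0.11 in both lines.

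**Figure D3:**
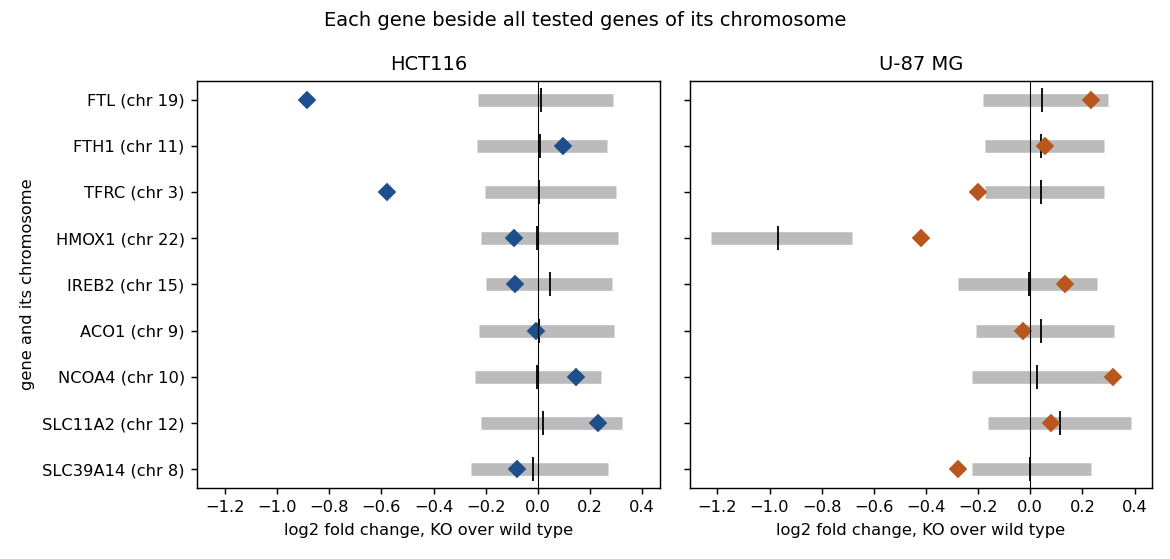
Log2 fold change, KO over WT (horizontal axis), of each tested member (diamond) beside the median (tick) and interquartile range (grey) of all tested genes on its chromosome, for HCT116 and U-87 MG. In U-87 MG the chromosome 22 median is -0.97 and HMOX1 is at -0.42, while the other medians are close to 0.

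The knockout effect on FTL, which cannot be told apart from a difference between picked colonies, differed between the lines. In the fit of all 12 libraries the difference of the log2 fold changes, HCT116 minus U-87 MG, was -1.11 (SE 0.06, edgeR adjusted p = 1.8e-16), 2.16-fold. It was the 1 of 9 members called, against 16.9% of 15613 genes (9.66% higher and 7.24% lower), and its value stayed between -1.21 and -1.08 under 20 alternatives. The difference was smaller for TFRC at -0.37 (edgeR adjusted p = 1.5e-05) and for HMOX1 at 0.34 (edgeR adjusted p = 0.00131). SLC39A14 differed by 0.20 (edgeR adjusted p = 0.0130), IREB2 by -0.21 (0.0236) and NCOA4 by -0.16 (0.0305), none reaching the fold. By adjusted p alone 6 of 9 passed, beside 41.9% of all genes. For FTH1 it was 0.05 (SE 0.23, edgeR adjusted p = 0.941), and without the U-87 MG WT library of replicate 3 it was -0.21 (adjusted p = 0.0236). SLC11A2 and ACO1 were at 0.16 and 0.03, with edgeR adjusted p of 0.0804 and 0.808.

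**Figure D4:**
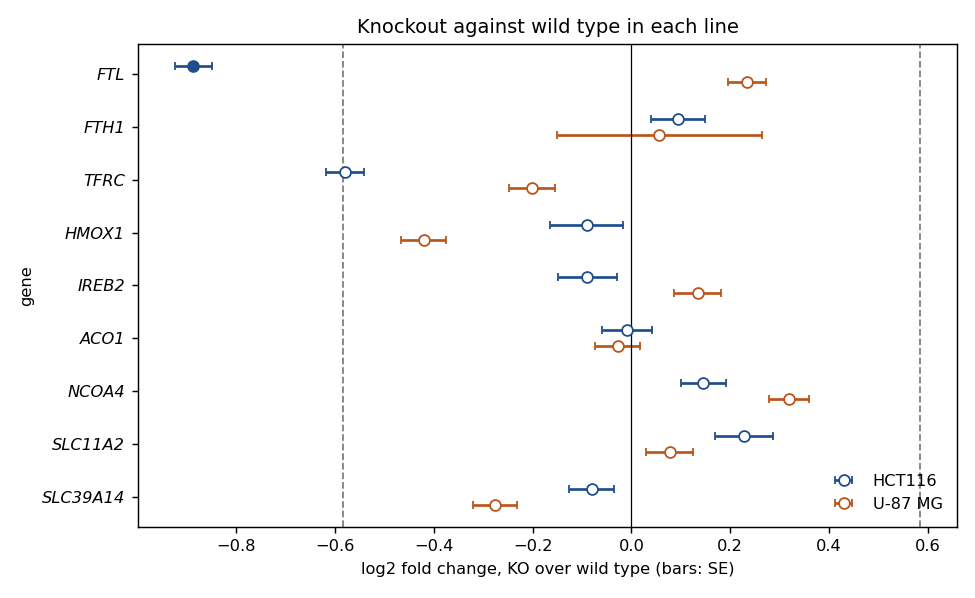
Log2 fold change, KO over WT (horizontal axis), with SE bars for 9 members in HCT116 and U-87 MG; a filled point is called and dashed lines mark a fold of 1.5. FTL in HCT116 at -0.89 is the filled point, TFRC in HCT116 at -0.58 lies on the line, and U-87 MG has no filled point.

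All 9 tested members were lower in WT HCT116 than in WT U-87 MG, and 7 were called lower, beside 28.3% of 15613 genes (55.2% called in either direction and 26.9% higher). The log2 differences ran from -2.48 for HMOX1 (5.59-fold) and -1.50 for FTH1 through SLC11A2 at -1.13, FTL at -0.98, SLC39A14 at -0.95 and IREB2 at -0.69 to TFRC at -0.61. NCOA4 at -0.45 and ACO1 at -0.38 were under the fold. All 9 had an edgeR adjusted p of at most 2.1e-05, as 87.4% of all genes passed by adjusted p alone. TFRC lost its call under 7 of 20 alternatives, among them those without U-87 MG WT replicate 1 (-0.57) or 2 (-0.56), and IREB2 under 3. With library totals alone the median of all genes moved by 0.19 from that with TMM scaling, and every member was still lower in HCT116. Line and read layout cannot be told apart here.

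Per length, ferritin stood far above the rest in every group. In WT HCT116 the mean FPKM was 1227 for FTL, which ranked 54 of 24552 symbols, and 741 for FTH1, followed by TFRC at 57.5, NCOA4 at 41.0, SLC39A14 at 31.0, ACO1 at 18.8, HMOX1 at 13.7, IREB2 at 9.22 and SLC11A2 at 9.04. Neighbours in that order did not overlap between libraries except IREB2 and SLC11A2. In HCT116 KO the order began with FTH1 at 749 and FTL at 636, then NCOA4 at 43.9 and TFRC at 37.2, so both pairs stood in the opposite order. In WT U-87 MG FTL was at 2275 FPKM (rank 9) and FTH1 at 1879 (rank 18), which overlapped, followed by TFRC at 80.1 and HMOX1 at 72.1, which also overlapped. SLC39A14 at 55.0 and NCOA4 at 51.3 overlapped too, with ACO1 at 22.5, SLC11A2 at 18.9 and IREB2 at 13.7 below them. In U-87 MG KO FTL was at 2732 (rank 6) and FTH1 at 2030, and NCOA4 at 64.9 stood above HMOX1 at 54.7.

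The genes whose level followed FTL most closely over the 12 libraries, by the root mean square difference of log2 CPM centred within each line, were TCFL5, CCDC85C and SLC2A1, out of 9085 candidates. Their distances were 0.0764, 0.0859 and 0.0861. TCFL5, a transcription factor, had log2 fold changes of -0.80 in HCT116 and 0.12 in U-87 MG. CCDC85C had -0.82 and 0.39, and SLC2A1, the glucose transporter GLUT1, had -1.01 and 0.38. With 2 lines and 2 genotypes, many genes can share such a pattern.

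Other iron genes were counted in 9 lists, each read against the 11.9% of genes called in HCT116 and 16.2% in U-87 MG. Of the import and intracellular transport list, 3 of 17 tested were called in HCT116 and 2 of 14 in U-87 MG. In HCT116 the scavenger receptor LRP1 rose from 15.9 ± 0.841 to 33.5 ± 1.64 CPM (SD, n = 3, log2 1.07, edgeR adjusted p = 2.5e-10) and SLC22A17, a receptor of lipocalin 2, rose (log2 0.66, and 0.48 without KO replicate 3, no longer called). Lipocalin 2 itself, LCN2, which binds iron-carrying siderophores, fell from 2.28 ± 0.363 to 0.896 ± 0.442 CPM (SD, n = 3, log2 -1.30, edgeR adjusted p = 5.9e-04). In U-87 MG the reductase CYBRD1 rose from 83.3 ± 2.66 to 141 ± 1.41 CPM (SD, n = 3, log2 0.76, edgeR adjusted p = 2.2e-12), and STEAP1 fell (log2 -1.11), with 23.8% of its stretches shared with STEAP1B.

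Of the export and systemic control list 1 of 7 was called in each line. In HCT116 the heme transporter family gene FLVCR2 rose (log2 0.62, edgeR adjusted p = 0.00716, with the call lost at 0.57 without KO replicate 1 or 2). In U-87 MG ERFE, the hepcidin suppressor erythroferrone, fell (log2 -0.68, edgeR adjusted p = 1.2e-06). ERFE was also lower in HCT116 (log2 -0.52, edgeR adjusted p = 2.4e-04), under the fold required. Its difference between lines was 0.17 (edgeR adjusted p = 0.368). For sensing and ferritin turnover, edgeR called 0 of 14 in HCT116 and 0 of 13 in U-87 MG. By edgeR adjusted p alone, 4 of 14 passed in HCT116 (57.3% of all genes) and 5 of 13 in U-87 MG (59.3%). DESeq2 called 0 of that list in each line. NFE2L2, which encodes NRF2, differed by 0.09 on the log2 scale in both lines (edgeR adjusted p = 0.126 and 0.139).

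Among the 6 other tested mRNAs reported to carry an IRE, 1 was called in HCT116. EPAS1, which encodes the hypoxia factor HIF-2α, fell in HCT116 from 49.0 ± 0.618 to 28.6 ± 1.09 CPM (SD, n = 3, log2 -0.77, edgeR adjusted p = 2.0e-09). Its log2 fold change in U-87 MG was -0.34. In U-87 MG the phosphatase CDC14A fell from 6.86 ± 0.57 to 3.72 ± 0.363 CPM (SD, n = 3, log2 -0.89, edgeR adjusted p = 8.7e-06). Its element, shown for comparison with those of ferritin, has the same loop in another stem.
CDC14A 3′ UTR, chr1:100518585-100518609, plus strand: tttacatgtaCAGTGttacattata
The FTL element shares 13 of 25 bases with that of CDC14A.

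Heme synthesis had 0 of 12 called in HCT116 by edgeR and by DESeq2. By edgeR adjusted p alone 7 of 12 passed there, beside 57.3% of all genes. Heme uptake and breakdown had 1 of 9 called in HCT116, the heme-binding protein gene HPX, which rose (log2 1.41, edgeR adjusted p = 8.9e-05). In U-87 MG 1 of 7 was called: SLC48A1, a lysosomal heme transporter, rose from 8.81 ± 1.91 to 28.5 ± 1.49 CPM (SD, n = 3, log2 1.67, edgeR adjusted p = 5.9e-10). Of 27 iron-sulfur cluster genes 2 were called in each line. The ferredoxin reductase FDXR rose (log2 0.63) and the glutaredoxin GLRX3 fell (log2 -0.70) in HCT116, both at an edgeR adjusted p of 6.1e-09. Without KO replicate 3 FDXR was at 0.57 and not called. The cochaperone HSCB, on chromosome 22, fell (log2 -0.88), as did BOLA1 (log2 -0.64, and -0.54 without KO replicate 1, not called) in U-87 MG.

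NRF2 and BACH1 targets other than the members had 4 of 19 called in HCT116, in both directions. ABCC3, ABCC2 and the cystine transporter SLC7A11 rose there (log2 1.19, 0.87 and 1.11), and GCLM, the regulatory subunit of glutathione synthesis, fell from 52.9 ± 4.27 to 29.3 ± 3.8 CPM (SD, n = 3, log2 -0.86, edgeR adjusted p = 3.2e-08). GCLM was named after its value was seen. In U-87 MG 3 of 19 were called, all lower: AKR1B10 (log2 -0.69), AKR1C1 (log2 -0.72) and OSGIN1 (log2 -0.59). Of the metallothioneins, 1 of 4 was called in HCT116, where MT1X fell (log2 -0.60), and 2 of 6 in U-87 MG, where MT3 (log2 2.68) and MT1M (log2 0.70) rose. MT3 was low, at 0.836 ± 0.0701 CPM in KO and 0.134 ± 0.0848 in WT (SD, n = 3). Calls were lost for OSGIN1 without KO replicate 3 (-0.58) or WT replicate 3 (-0.56), for MT1X without KO replicate 1 (-0.51) or WT replicate 3 (-0.52), and for MT1M without WT replicate 3 (0.52). AKR1C1, AKR1B10, MT1X and MT1M share 22.7%, 18%, 18% and 14.6% of their stretches with other genes.

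**Figure D5:**
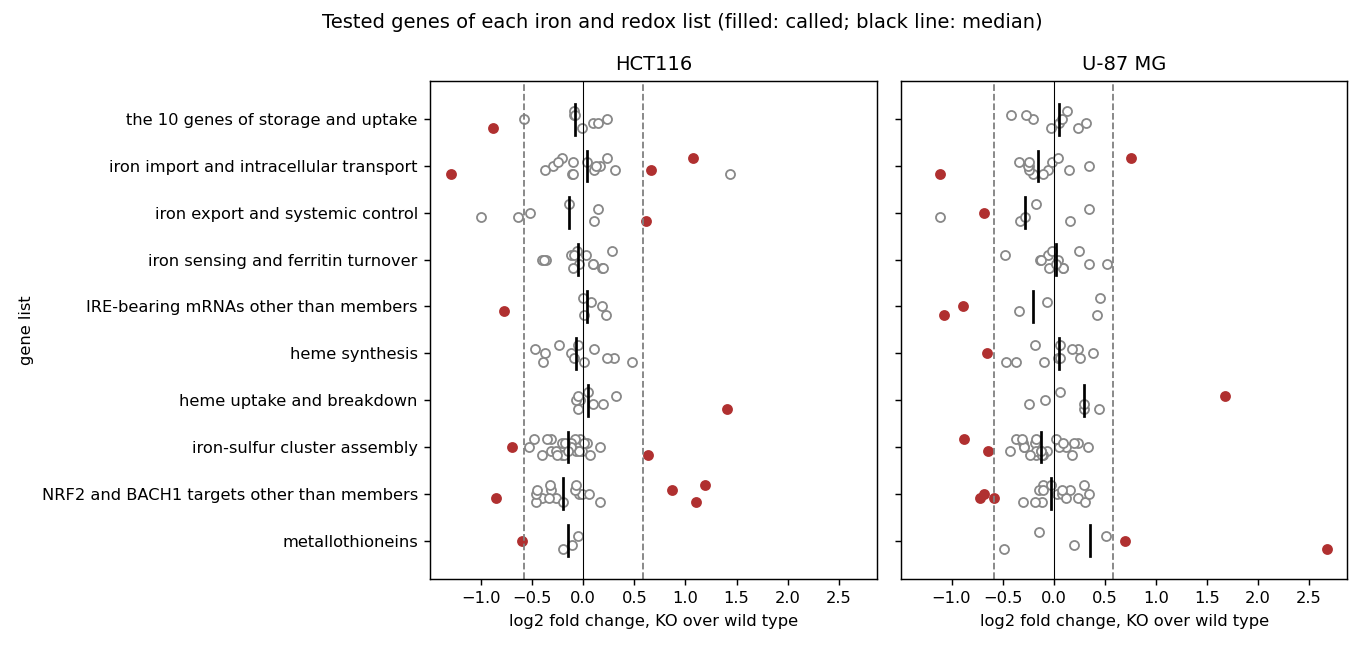
Log2 fold change, KO over WT (horizontal axis), of every tested gene in each list for HCT116 and U-87 MG; filled points are called, the black line is the list median and dashed lines mark a fold of 1.5. Called genes are few in every list, from 0 to 4, and both directions occur in each line.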

How the data were processed

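Counts per gene were made by the authors with featureCounts 1.6.1 after mapping to GRCh38 with STAR 2.5.2, and FPKM values with Cufflinks 2.2.1 on refGene models, per the submitters' processing notes and the series' design text. The deposited counts were tested in R 4.3.3 with edgeR 4.0.16 (TMM scaling, filterByExpr, glmQLFit robust), each line alone, and all 12 libraries together for differences between lines. P-values were adjusted over all genes tested, and no covariate was used. Levels are TMM-scaled CPM within a line, or FPKM for comparisons per length. Ratios were tested by exact permutation. Alternatives used DESeq2 1.42.0, limma 3.58.1 on log2(FPKM + 1) or log2(FPKM + 0.1), other scaling, no filter, the replicate number as a block, and each library left out. Scripts were tested on simulated data. Positions, IRE matches and 50-base repeats come from GENCODE v44 and GRCh38.

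The members and lists were chosen with earlier results of these data known. Text names all members, GSTO1, up to 3 called genes with the smallest adjusted p per list and line, and the 3 genes nearest each called member with at least 2 FPKM in both lines. The 9 lists and 4 marker lists were read from fixed symbols. The precision of each value is limited by 3 libraries per group. Some genes of the lists are not reported here.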

Additional observations from a re-analysis of the deposited data

Results flagged for a closer look

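The FTL knockout effect was different in the 2 lines. FTL fell in HCT116 KO and was higher in every U-87 MG KO library than in any WT library. The difference of the log2 fold changes was -1.11 (edgeR adjusted p = 1.8e-16). Its cause was not tested, and loss of GSTO1 cannot be told apart from differences between picked colonies in either line.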

How the results depend on the processing

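The HCT116 count of called members was 1 and became 2, with TFRC added, under DESeq2 size factors, no filter on low counts, DESeq2, and limma on log2(FPKM + 1) or log2(FPKM + 0.1). Leaving out 1 library gave 1 to 2, with 2 without KO replicate 2 or without WT replicate 3. All genes called in HCT116 numbered 1672, and 1065 with limma on log2(FPKM + 1). The cause was not tested. U-87 MG kept 0 members called under every alternative, and FTL kept its call in HCT116 and in the difference between lines under all of them. ACO1 and FTH1, neither called, changed sign in places. HCT116 ACO1 was 0.0084 with library totals alone and from -0.036 to 0.017 over the fits that left out 1 library, positive without WT replicate 1. In U-87 MG, ACO1 was 0.016 with library totals alone, and FTH1 ran from -0.060 to 0.29, at -0.060 and -0.047 without WT replicate 1 or 2. The difference between lines for ACO1 was -0.0073 with library totals alone, -0.037 and -0.039 with limma on log2(FPKM + 1) and log2(FPKM + 0.1), and -0.0019 to 0.054 with 1 library left out, the lowest without U-87 MG KO replicate 1. For FTH1 it was -0.12 with limma on log2(FPKM + 1) and -0.12 with log2(FPKM + 0.1), and from -0.21 to 0.16 with 1 library left out, at -0.02 without HCT116 KO replicate 3 and -0.21 without U-87 MG WT replicate 3. Of the list genes named, LRP1, HPX, SLC22A17, FLVCR2, FDXR, ERFE, CDC14A, BOLA1 and OSGIN1 lost their call with limma on log2(FPKM + 1). FLVCR2 and OSGIN1 also lost it with log2(FPKM + 0.1), and MT1X and OSGIN1 with library totals alone. Among the marker genes named, CSF1R (-0.575) and CLDN4 (0.39) in U-87 MG lost theirs with limma on log2(FPKM + 1).

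The replicate numbers are shared between KO and WT. Same-numbered deviations correlated at 0.026, 0.017 and 0.135 in HCT116 and 0.025, 0.001 and -0.010 in U-87 MG. The highest correlations with another number were 0.078, 0.037 and -0.062 in HCT116 and -0.005, 0.014 and 0.018 in U-87 MG. Only HCT116 number 3 and U-87 MG number 1 correlated best with their own number. No label says what a shared number stands for. With the replicate block 1680 genes were called in HCT116 (1664 in both fits) and 2221 in U-87 MG (2203 in both), and no member's call changed.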

Other observations

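The importers SLC39A14 and SLC11A2 stood in different proportion in KO and WT. By FPKM, the SLC39A14 to SLC11A2 ratio was 2.78 ± 0.190 in HCT116 KO against 3.43 ± 0.176 in WT (SD, n = 3, exact permutation p = 0.1, adjusted 0.15). In U-87 MG it was 2.26 ± 0.0989 against 2.91 ± 0.0797 (SD, n = 3, exact permutation p = 0.1, adjusted 0.15). The libraries of the groups did not overlap in either line, and 0.1 is the smallest p that 3 against 3 can give.

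FTH1 had its highest CPM in the library numbered 3 in all 4 groups, from 903 and 949 in HCT116 WT and KO to 2176 and 2686 in U-87 MG KO and WT.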
